A study of Mus musculus with 2 samples.

Results

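The positions described here are m6A sites that lie within a few nucleotides of another m6A site on the same strand. The RNA came from control mouse testes at 12 days of age (P12), and the growth protocol names B6D2F1 (C57BL/6 × DBA2), DBA2 and C57BL6 mice without saying which strain gave which sample. The single group holds 2 replicates, numbered in the labels, and nothing says whether they came from separate animals or pools, so the spread between them may be technical. The wider study also concerned mettl3 conditional knockout testes, which were not analysed here. Both lists were pooled and each chromosome, start and strand was kept once, which gave 12516 positions. Members were chosen by the measured distance alone: another pooled position on the same strand had to start 4 to 10 nt away. This left 545 members, or 4.35% of the pool. Of these, 323 were listed by replicate 1 and 326 by replicate 2. They formed 284 pairs.

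N6-methyladenosine is placed on messenger RNA by a complex whose catalytic subunit is METTL3, with METTL14 as its partner. The complex prefers adenosines in a short consensus known as DRACH, and the mark is bound by YTH proteins, which influence splicing, translation and decay of the RNA. In the male germline METTL3 is needed for spermatogonia to differentiate and for meiosis to proceed. Whole testis at this age holds spermatogonia, early meiotic cells and somatic cells such as Sertoli cells, and the site lists do not tell these sources apart. The assay, miCLIP, crosslinks an anti-m6A antibody to RNA and reads the scar left in the cDNA, so it can separate neighbouring bases. Members of a pair may have been methylated on the same RNA molecule or on different ones, and the lists hold no information on this.

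Every entry in the lists is an interval of 5 nt with no read count or strength. Replicate 1 had 7019 distinct positions on 7549 lines and replicate 2 had 7182 on 7697 lines. The number of lines on which a list repeats a position is the only property besides the position itself, and what a line stands for is not given in the sources used here. The intervals of a pair share 1 base at a distance of 4 nt, abut at 5 nt, and leave 1 to 5 bases between them at 6 to 10 nt. Coordinates are 1-based on mm9. No sequence or gene is given for any site, since no mm9 genome or annotation was used here.

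Pairs were most numerous at the short end of the range. There were 40 pairs at 4 nt, 54 at 5 nt and 52 at 6 nt. The counts were 32 at 7 nt, 38 at 8 nt, 35 at 9 nt and 33 at 10 nt. The median distance was 6 nt. Just outside the range, 0 pairs lay 3 nt apart and 22 lay 11 nt apart. The 33 pairs at 10 nt included 2 with both members in both lists, and the 22 pairs at 11 nt included 3. Because distance chose the members, these counts are a description and were not tested. Both strands contributed, with 269 members on the plus strand and 276 on the minus strand. The plus strand held 49.4% of members and 51.6% of all pooled positions. On opposite strands, 1 pair of starts lay 4 to 10 nt apart, against 284 on the same strand.

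**Figure D1:**
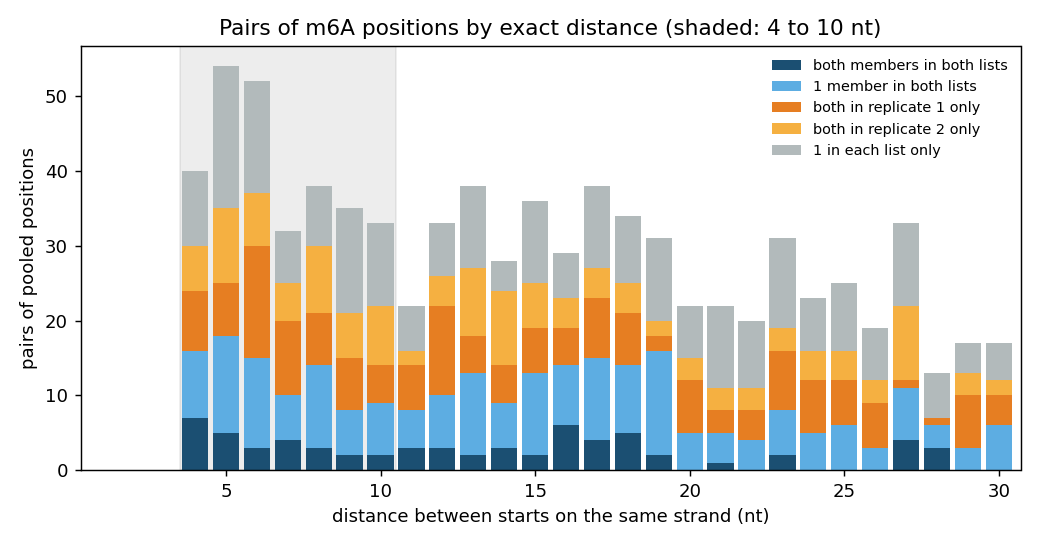
Number of pairs of pooled positions (vertical axis) at each distance from 1 to 30 nt between starts on the same strand (horizontal axis), stacked by which list holds each member; the shaded band marks 4 to 10 nt. Pairs were absent below 4 nt, numbered 54 at 5 nt and 33 at 10 nt, and those with 1 member in each list only occurred at every distance from 4 nt on.

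The distances were also split by the list that held each pair. At 4 nt, 20 pairs were complete in replicate 1 and 17 in replicate 2. At 5 nt these counts were 17 and 23, and at 6 nt they were 22 and 18. Replicate 1 held 17, 13, 11 and 9 complete pairs at 7, 8, 9 and 10 nt, and replicate 2 held 12, 20, 12 and 15. Neither list had consistently more pairs across the 7 distances.

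Most members stood in pairs with no further position close by. Joining members with gaps of at most 10 nt gave 264 runs, of which 250 held 2 positions, 11 held 3 and 3 held 4. The 14 longer runs held 45 members and 34 of the 284 pairs. Only 3 pairs in these runs had another position between their members. Most runs lay near further sites: 158 of 264 had another pooled position within 1 kb on the same strand (59.8%, 95% Wilson interval 53.8 to 65.6%) and 70 had one within 100 nt (26.5%, 21.6 to 32.1%). The other 106 runs had none within 1 kb. Among all 12516 pooled positions, 6700 had no neighbour within 1 kb. Of the 11971 positions that were not members, 2079 had their nearest neighbour at 11 to 100 nt. These counts are of single positions and not of runs, and the difference was not tested.

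The 3 runs of 4 all lay on the minus strand and are shown because they are the longest stretches of adjacent sites. On chromosome 19, the run covered 24550935 to 24550957, and both replicates listed all 4 of its positions. Read 5′ to 3′, its starts were spaced 8, 6 and 4 nt apart. Its lines numbered 1, 2, 2 and 1 in replicate 1 and 1, 2, 1 and 1 in replicate 2. The inner positions were thus the ones repeated in replicate 1, and of these the upstream position was also repeated in replicate 2.

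On chromosome 13, the run covered 29043475 to 29043495 with spacings of 4, 8 and 4 nt, so it consisted of overlapping pairs at either end. Replicate 1 listed its positions on 1, 1, 1 and 3 lines, and replicate 2 on 1, 1, 0 and 1. The third position was therefore found in replicate 1 only. The last position, 29043475 to 29043479, was 1 of 4 members that a list repeated on 3 lines, and all 4 of those were in both lists. On chromosome 14, the run covered 52818107 to 52818135 with spacings of 7, 10 and 7 nt. Replicate 1 listed its positions on 1, 1, 1 and 0 lines and replicate 2 on 1, 2, 1 and 1, which left the downstream-most position to replicate 2 alone. Besides their own members, these runs had 1, 3 and 5 further positions within 1 kb, for chromosomes 19, 13 and 14 in that order. Of their 12 positions together, 10 were in both lists, as were 19.1% of all members and 13.5% of all pooled positions. Earlier results of these data had already picked these stretches for their shared sites, so the count is a description.

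The 11 runs of 3 were more mixed. Their intervals spanned 13 to 23 nt, and 4 of them had equal spacings. All 3 positions were in both lists in 1 run, on chromosome 15 from 52900062 to 52900084 on the minus strand, where the spacings were 9 and 9 nt and every position stood on 1 line in each list. In 4 runs, 2 positions were in both lists, in 1 run 1 position was, and in 5 runs none was. Of those 5, 2 came from replicate 1 alone and 3 drew on both lists. The shortest run lay on chromosome 14 from 8888375 to 8888387 on the plus strand with spacings of 4 and 4 nt. Its positions stood on 0, 1 and 2 lines of replicate 1 and on 1, 1 and 1 lines of replicate 2.

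Pairs that both replicates listed in full numbered 26 of 284 (9.15%, 6.32 to 13.1%), on 13 chromosomes. Of pairs 11 to 17 nt apart, 23 of 224 were so listed (10.3%, 6.94 to 14.9%). At 18 to 24 nt, 10 of 183 were (5.46%, 2.99 to 9.77%), and these shares were not tested. Of the 26 pairs, 17 were on the minus strand and 9 on the plus strand. These are not all separate cases. Only 15 stood alone, and the others lay in runs of 3 or 4, where pairs can share a position. The 26 pairs stood on 4 lines in all, the fewest possible, in 11 cases and on 5 to 7 lines in 15. Those named are the first 12 by number of lines, then by coordinate. This cut falls inside a tie, since 9 pairs had 5 lines and 6 of them are among the 12. A pair on the minus strand of chromosome 7, from 106627393 to 106627403, lay 6 nt apart. Its upstream member was on 2 lines in replicate 1 and 1 in replicate 2, and its downstream member on 2 in each. No other pooled position lay within 1 kb of it. The other pair with 7 lines was the central one of the chromosome 19 run.

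A pair on the plus strand of chromosome 1, from 20926304 to 20926313, had abutting intervals, with 2 lines in each list for the upstream member and 1 in each for the downstream one. On the minus strand of chromosome 11, from 53075241 to 53075251, a pair 6 nt apart showed opposite repeats: the upstream member was on 1 line in replicate 1 and 2 in replicate 2, and the downstream member on 2 and 1. Each of these pairs had 3 further positions within 1 kb. A second pair on that strand of chromosome 11, from 100819781 to 100819789, lay 4 nt apart and had 2 lines in replicate 1 and 3 in replicate 2. Of these 12 pairs, 5 lay inside the runs of 4, and the 12 carried 5 to 7 lines each.

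**Figure D2:**
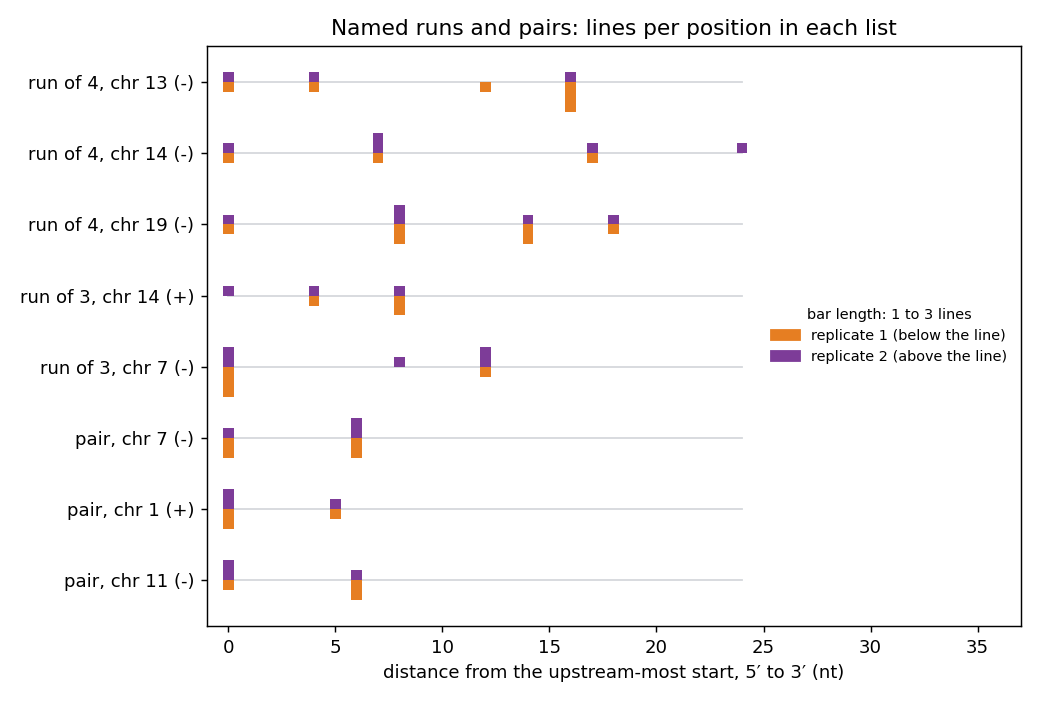
Lines per position in replicate 1 (orange, drawn below each line) and replicate 2 (purple, above it) for the 3 runs of 4, 2 runs of 3 and 3 pairs; the horizontal axis is the distance in nt from the upstream-most start, and bar length counts 1 to 3 lines. The chromosome 19 run has both colours at all 4 positions, while the third position of the chromosome 13 run has replicate 1 only.

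Few members were repeated often. Over both lists, 411 members stood on 1 line, 99 on 2, 26 on 3, 6 on 4 and 3 on 5. The 3 members on 5 lines were chosen after their values were seen, and each had a neighbour on fewer lines. On chromosome 7, minus strand, the member at 17500815 to 17500819 was on 3 and 2 lines, and the next position 8 nt downstream was on 0 and 1. The third position of that run, 12 nt from the first, was on 1 and 2 lines. On chromosome 16, plus strand, the member at 23050998 to 23051002 was on 3 and 2 lines, and its neighbour 6 nt upstream was on 0 and 1. On chromosome 6, plus strand, the member at 113339105 to 113339109 was on 2 and 3 lines, and its neighbour 4 nt downstream was on 1 and 0. In these 3 places the position next to the most repeated one was listed by 1 replicate only, though not by the same one.

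The pairs were then divided by which replicate listed each member. Besides the 26 pairs in both lists, 64 had 1 member in both lists. Both members were found in replicate 1 only in 59 pairs and in replicate 2 only in 51. The remaining 84 pairs (29.6%, 24.6 to 35.1%) had 1 member in each list only, so they appeared only once the lists were pooled. Of pairs 11 to 17 nt apart, 56 of 224 were split in this way (25%, 19.8 to 31.1%). At 18 to 24 nt, 66 of 183 were (36.1%, 29.5 to 43.2%). The share at 4 to 10 nt lay between these values, and the differences were not tested. Of the pairs 4 to 10 nt apart, replicate 1 alone held 109 complete pairs and replicate 2 held 117. Of the 109, replicate 2 listed both members in 26 (23.9%, 16.8 to 32.7%), 1 member in 24 and none in 59. Of the 117, replicate 1 listed both in 26 (22.2%, 15.6 to 30.6%), 1 in 40 and none in 51.

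Upstream and downstream members were compared in the 250 pairs that stood alone, meaning that no other position lay within 10 nt of either. The upstream member was in both lists in 38 pairs (15.2%, 11.3 to 20.2%) and the downstream member in 44 (17.6%, 13.4 to 22.8%). Only the upstream one was in both lists in 23 pairs, and only the downstream one in 29 (exact McNemar test, 2-sided, p = 0.488, adjusted p = 0.606). The upstream member stood on more lines in 37 pairs and the downstream member in 44 (exact binomial test, 2-sided, p = 0.505, adjusted p = 0.606), and 169 pairs had equal lines. Each side had 28 members that a list repeated. No difference between the sides passed the test, and the upstream share of unequal pairs could lie between 31.6 and 57.7% for sharing and between 35.3 and 56.5% for lines. When pairs up to 20 nt apart were taken instead, only the downstream member was in both lists in 66 and only the upstream one in 38 (exact McNemar test, 2-sided, unadjusted p = 0.0078, outside the tests adjusted together). That window adds pairs that are not members. In pairs alone at 11 to 17 nt the counts were 32 against 12, so the 4 to 10 nt pairs, at 29 against 23, are not shown to have this imbalance.

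By distance, the balance varied without a steady course. At 6 nt, 3 pairs had only the upstream and 8 only the downstream member in both lists, and the downstream member stood on more lines in 11 pairs against 5. At 8 nt these counts ran the other way, with 4 against 3 and 7 against 4 in favour of the upstream member. At 4 nt there were 3 pairs of each kind. In the 79 pairs alone with 1 member in each list only, replicate 1 held the upstream member in 38 and replicate 2 in 41 (exact binomial test, 2-sided, p = 0.822, adjusted p = 0.822). No displacement of 1 list towards the upstream side was detectable in these pairs. Where neither member was in both lists, 104 pairs came from 1 list and 79 from both. With the upstream member in replicate 1 only, the downstream member was too in 53 of 91 of these pairs. With the upstream member in replicate 2 only, the downstream member was in replicate 1 only in 41 of 92. This difference did not pass (Fisher's exact test, 2-sided, odds ratio 1.73, 95% interval 0.928 to 3.25, p = 0.0764, adjusted p = 0.153).

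**Figure D3:**
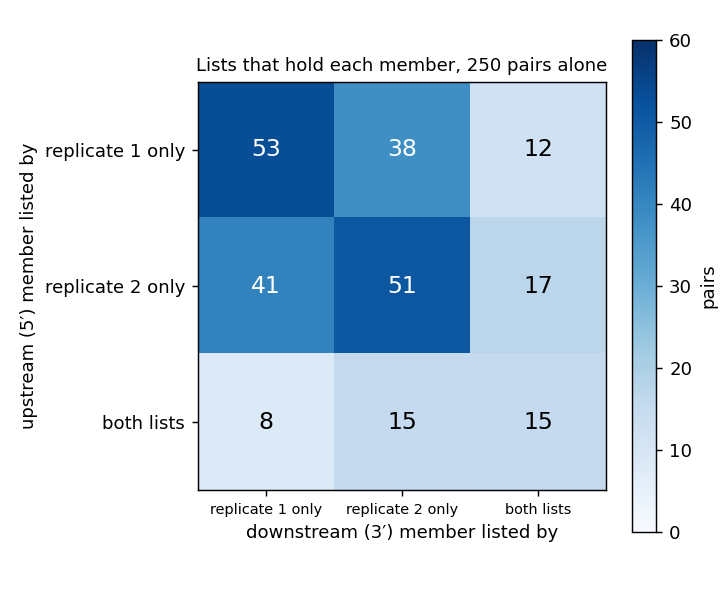
Number of pairs for each combination of lists holding the upstream member (rows) and the downstream member (columns), over the 250 pairs with no other position within 10 nt; darker cells hold more pairs. In 15 pairs both members were in both lists, in 53 both were in replicate 1 only and in 51 both were in replicate 2 only.

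Members of a pair tended to recur together. Where the upstream member was in both lists, the downstream member was too in 15 of 38 pairs (39.5%, 25.6 to 55.3%). Where it was not, the downstream member was in 29 of 212 (13.7%, 9.7 to 19.0%; Fisher's exact test, 2-sided, odds ratio 4.08, 95% interval 1.77 to 9.32, p = 0.000403, adjusted p = 0.00208). If sharing of either member were unrelated to that of the other, 6.69 pairs would have had both. At 6 to 10 nt alone the odds ratio was 2.55 and did not pass (Fisher's exact test, unadjusted p = 0.1). At 4 and 5 nt it was 6.9 (Fisher's exact test, unadjusted p = 0.00137). Both splits were added after the data were seen and lie outside the tests adjusted together. These 2 values were not tested against each other. Farther apart, pairs alone had odds ratios of 2.03 at 11 to 17 nt (0.624 to 6.16), 2.75 at 18 to 24 nt (0.885 to 8.12) and 1.55 at 25 to 100 nt (0.689 to 3.21). All 3 intervals overlap that of the pairs 4 to 10 nt apart, so the link between members is not shown to be particular to this distance.

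Repetition on lines was examined in the same way. In 4 pairs alone both members were repeated by a list, in 24 only the upstream member and in 24 only the downstream one (Fisher's exact test, 2-sided, odds ratio 1.37, 95% interval 0.319 to 4.5, adjusted p = 0.608). This test did not pass, and its interval contains the odds ratio found for sharing. Pairs 4 and 5 nt apart were in both lists in full in 12 of 94 cases (12.8%), and pairs 6 to 10 nt apart in 14 of 190 (7.37%), a difference that did not pass (Fisher's exact test, 2-sided, odds ratio 1.84, 0.74 to 4.49, adjusted p = 0.282).

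Members were also set against positions whose nearest same-strand neighbour was 11 to 100 nt away. Tests of this kind, here and for repeated lines, count each position as independent, though members lie together in runs. Of the 545 members, 104 were in both lists (19.1%, 16.0 to 22.6%), 219 in replicate 1 only and 222 in replicate 2 only. Over all pooled positions 13.5% were in both lists. Among the 2079 positions with a neighbour at 11 to 100 nt the share was 13.7% (12.3 to 15.2%), which was lower than in members (Fisher's exact test, 2-sided, odds ratio 1.49, 95% interval 1.15 to 1.92, p = 0.00223, adjusted p = 0.00764). It was 13.2% among the 6700 positions with no neighbour within 1 kb (adjusted p = 0.00208 against members, Fisher's exact test). The 369 positions with a nearest neighbour at 11 to 17 nt had a share of 18.2% (14.6 to 22.4%), and members did not differ from them detectably (Fisher's exact test, odds ratio 1.06, 0.747 to 1.52, adjusted p = 0.822). The higher share was therefore not particular to distances of 4 to 10 nt.

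The longer runs contributed to this difference. In runs of 2, 82 of 500 members were in both lists (16.4%, 13.4 to 19.9%). In runs of 3 the count was 12 of 33 (36.4%, 22.2 to 53.4%), and in runs of 4 it was 10 of 12 (83.3%, 55.2 to 95.3%). These shares are a description and were not tested, since positions of a run are not independent and the runs of 4 lie in stretches that earlier results of these data had picked for their shared sites. With the runs of 2 alone, the difference from positions at 11 to 100 nt was 2.74 percentage points and did not pass (adjusted p = 0.216, Fisher's exact test). With 1 position taken from each run it was 3.01 points (adjusted p = 0.282, Fisher's exact test).

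**Figure D4:**
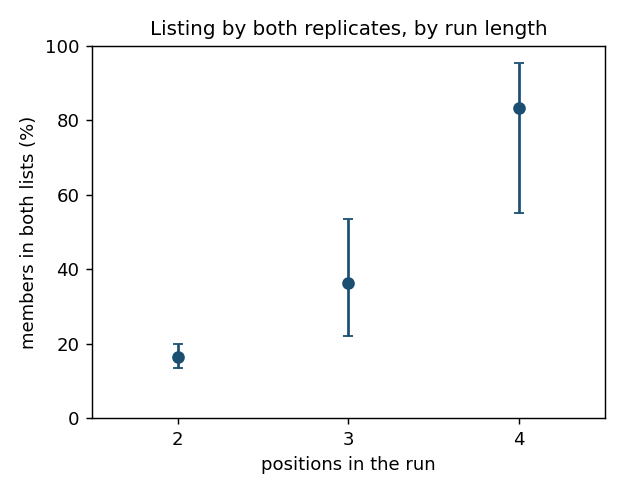
Share of members listed by both replicates (vertical axis, percent) by the number of positions in their run (horizontal axis); points are shares and bars 95% Wilson intervals, over 500, 33 and 12 members. The shares are 16.4%, 36.4% and 83.3%.

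When the members were chosen from 1 list alone, the other list served as a readout that the choice had not used. The tests made this way were added after the data were seen. Replicate 1 on its own had 205 positions with a neighbour 4 to 10 nt away, and replicate 2 listed 68 of them (33.2%, 27.1 to 39.9%). It listed 207 of the 855 positions of replicate 1 with a nearest neighbour at 11 to 100 nt (24.2%, 21.5 to 27.2%; Fisher's exact test, 2-sided, adjusted p = 0.0241). Replicate 2 on its own had 221 such positions, of which replicate 1 listed 82 (37.1%, 31.01 to 43.6%), against 175 of 690 (25.4%, 22.3 to 28.7%; Fisher's exact test, 2-sided, adjusted p = 0.00425). Against positions with a nearest neighbour at 11 to 17 nt in the same list the gap was smaller, and the intervals overlapped: replicate 2 listed 49 of 164 such positions of replicate 1 (29.9%, 23.4 to 37.3%), and replicate 1 listed 45 of 140 of replicate 2 (32.1%, 24.97 to 40.3%). With only the first position of each run, the shares of members were 29 of 98 (29.6%, 21.5 to 39.3%) and 36 of 106 (33.96%, 25.6 to 43.4%). Neither of these was tested, and both directions rest on overlapping shared positions.

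Repetition on lines was compared within each list. In replicate 1, 39 of 323 members stood on 2 or more lines (12.1%, 8.96 to 16.1%), where 6.87% of all its positions did. In replicate 2 the count was 34 of 326 (10.4%, 7.56 to 14.2%), where 6.47% of all positions did. Positions with no neighbour within 1 kb were repeated less often than members, at 5.74% in replicate 1 (Fisher's exact test, 2-sided, odds ratio 2.26, adjusted p = 0.000876) and 5.96% in replicate 2 (odds ratio 1.84, adjusted p = 0.00842). Positions with a neighbour at 11 to 100 nt stood at 8.53% and 8.13%, and members did not differ from them detectably in either replicate (Fisher's exact test, odds ratios 1.47, 0.97 to 2.2, and 1.32, 0.842 to 2.02; adjusted p = 0.116 and 0.307).

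**Figure D5:**
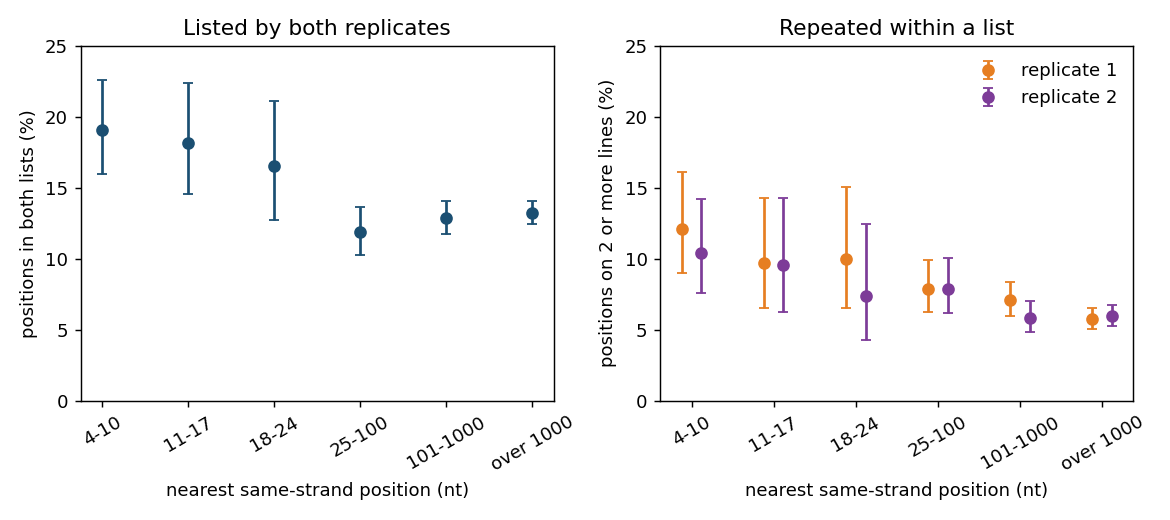
Left, share of pooled positions in both lists; right, share of positions on 2 or more lines in replicate 1 (orange) and replicate 2 (purple), by distance to the nearest same-strand position in nt (horizontal axes); points are percentages and bars 95% Wilson intervals. Members at 4 to 10 nt stand at 19.1% on the left, next to 18.2% at 11 to 17 nt and 13.2% beyond 1 kb.

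Members in both lists were repeated more often than the others, as were positions farther apart. Of the 104 members in both lists, 35 were on 2 or more lines of a list (33.7%, 25.3 to 43.2%), against 18 of 219 in replicate 1 only (8.22%) and 12 of 222 in replicate 2 only (5.41%). Positions with a neighbour at 11 to 100 nt gave 20.4%, 7.09% and 6.58% in the same order. A position in both lists has an added chance to be repeated, so the comparison was also made within a list. Of the members on 1 line of replicate 1, 29.2% were listed by replicate 2 (24.2 to 34.8%), and of those on 2 lines 50.0% were (34.5 to 65.5%). Replicate 2 gave 28.1% (23.2 to 33.5%) for members on 1 line and 63.6% (46.6 to 77.8%) for those on 2. Over all positions that were not members, these shares were 22.3 and 39.2% in replicate 1, and 21.8 and 37.7% in replicate 2. Among positions on 1 line only in each list holding them, 14.4% of members and 11.9% of positions at 11 to 100 nt were in both lists, a difference that did not pass (Fisher's exact test, 2-sided, adjusted p = 0.243).

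Adjacent sites were found on all 19 autosomes and on the X chromosome. The share of pooled positions that were members ranged over the autosomes from 1.99% on chromosome 3 (11 of 553, 1.11 to 3.53%) to 7.08% on chromosome 13 (32 of 452, 5.06 to 9.82%), with a median of 4.19%. Chromosome 9 had the most members, 51 of 778 (6.56%, 5.02 to 8.52%), followed by chromosome 2 with 50 of 957 (5.22%). Chromosome 11 had 46 of 1099 (4.19%) and chromosome 17 had 40 of 678 (5.9%). The X chromosome had 14 of 411 (3.41%, 2.04 to 5.64%), and none of the 5 positions on the Y chromosome was a member. Over all members 19.1% were in both lists, and over all pooled positions 13.5%. On chromosome 3 none of the 11 members was in both lists, while on chromosome 14 there were 10 of 26 and on chromosome 19 there were 7 of 20. The runs of 4 on chromosomes 14 and 19 supply 3 and 4 of these. These chromosomes were picked after their values were seen, and their differences were not tested.

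Runs with and without a recurring member were compared by their surroundings. Another pooled position lay within 1 kb of 51 of the 76 runs with a member in both lists (67.1%, 55.9 to 76.6%), and of 107 of the 188 runs without one (56.9%, 49.8 to 63.8%). Within 100 nt these counts were 28 of 76 (36.8%, 26.9 to 48.1%) and 42 of 188 (22.3%, 16.97 to 28.8%). The intervals overlap in both cases, and the differences were not tested. In all, 24 tests were adjusted together by the Benjamini-Hochberg method, and 10 passed at an adjusted p of 0.05. They compare positions within 2 libraries, so their p-values cover no more than counting error. Tests of members against other positions count each position as independent. The 545 members formed 264 runs, and members of a pair tended to recur together. The p-values of those tests therefore do not fully cover even that error.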

How the data were processed

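Each of the 2 deposited lists gives the chromosome, 0-based start, end and strand of 5 nt intervals, and its name and score fields are empty of values. The submitters' processing notes name mm9 as build, and CASAVA and BWA 0.7.10 as tools. How sites were called and filtered, by sequence or by spacing, is not given in the sources used here. Such steps decide which sites can stand next to each other, so distances may reflect them. Read depth is unknown.

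Repeated lines were collapsed to 1 position and their number was kept. Pairs, runs and nearest neighbours were found with Python 3.11.15, and the search recovered all planted members of a simulated list. Shares carry 95% Wilson intervals; SciPy 1.17.1 gave Fisher's exact and exact binomial (McNemar) tests, 2-sided, and statsmodels 0.14.6 the adjustment over 24 tests, 9 of them added after the data were seen. Named regions are all runs of 4 or more, and the first 12 pairs in both lists by number of lines, then by coordinate. The members, comparisons and named regions were chosen with earlier results of these data known, and the runs of 4 lie in stretches those results had already picked for shared sites. The planned reading of sequences was not made without an mm9 genome. Tables of the reference on another build were not used.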

Additional observations from a re-analysis of the deposited data

How the results depend on the processing

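The data are limited to 2 lists with no read depth and no genes. Among 69 alternatives, 40 gave a count within 1.5 times, a share within the 95% interval, or an exact test on the same side of the 0.05 threshold. The 545 members and 284 pairs became 186 and 94 at 4 and 5 nt, 1052 and 595 at 4 to 20 nt, 46 and 26 with positions in both lists only, and 10 and 5 with positions on 2 or more lines only. Replicates 1 and 2 alone gave 205 and 221 members and 109 and 117 pairs. The 19.1% of members in both lists became 24.2% at 4 and 5 nt and 70% (7 of 10) with positions on 2 or more lines. The 9.15% of pairs in both lists became 60% (3 of 5) in that set and 6.0% in pairs alone. The 11.9% of members on 2 or more lines became 30.4% with positions in both lists only, and was 12.2% in either replicate alone (12.195% and 12.217%). The excess of 5.42 percentage points in sharing no longer passed against positions at 11 to 17 nt (0.925), with 1 position per run (3.01), in runs of 2 only (2.74) and with positions on 1 line only (2.47). The excess in repeated lines, 3.55 and 2.3 points in replicates 1 and 2, passed against positions with no neighbour within 1 kb (6.34 and 4.47) and against all others (5.46 and 4.14). Pairs with the upstream member in both lists were 6 fewer than the reverse (-6). This was 1 at 4 and 5 nt, a turned sign on a difference that passed in neither. At 4 to 20 nt it was -28 (exact McNemar test, 2-sided, unadjusted p = 0.0078). For lines, -7 became -27 at 4 to 20 nt (exact binomial test, 2-sided, unadjusted p = 0.0316) and lay between -3 and 0 in either replicate alone. Both p-values at 4 to 20 nt lie outside the tests adjusted together. The odds ratio of 4.08 for joint recurrence was 2.55 at 6 to 10 nt. Why these values moved was not tested, apart from sets that are smaller by construction. Sharing has no value in 1 list alone, and none among positions chosen for it. No paired analysis was possible because all samples form 1 group.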

Other observations

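Pairs farther apart than the adjacent sites were counted in the same way. In the 163 pairs 11 to 17 nt apart with no other position as close, only the downstream member was in both lists in 32 and only the upstream one in 12. At 18 to 24 nt the counts were 18 and 16, and at 25 to 100 nt they were 52 and 60, so the larger imbalance stood in the first of these classes only. The 11 to 17 nt class was singled out after its values were seen and was given no test of its own, nor was it tested against pairs 4 to 10 nt apart.

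Adjacent pairs also occurred on contigs that mm9 does not place. The unplaced contig set of chromosome 13 held 1 pair among 6 positions, and that of the Y chromosome held 1 pair among 3 positions.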
